A study of Mus musculus with 18 samples.

Results

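The protein kinases that phosphorylate eIF2 and the genes that regulate them were examined in mouse liver RNA-Seq. The 7 genes were taken by symbol from a table of 37303 genes: Eif2ak1, Eif2ak2, Eif2ak3 and Eif2ak4, which encode the eIF2 kinases, and the regulators Gcn1l1, Impact and Dnajc3. Livers came from 18 mice on the C57BL/6J background, 3 per group, of 8 to 16 weeks of age by the sample labels. WT mice, mice lacking Gcn2 (the common name of Eif2ak4) in the whole body (Gcn2-/-) and mice lacking Atf4 in the whole body (Atf4-/-) received 8 daily injections of asparaginase (ASNase) at 3 IU per gram body weight or of phosphate buffered saline (PBS), and liver was collected 7.5 h after the last one. Both deletions were homozygous and present in every cell type, so no liver-specific loss was studied. The groups were of mixed sex, with 1 male of 3 in WT PBS, Gcn2-/- PBS and Gcn2-/- ASNase and 2 males of 3 in WT ASNase, Atf4-/- PBS and Atf4-/- ASNase. Expression is given as FPKM, fragments scaled to transcript length and to the number of mapped reads, 1 value per group that Cuffdiff had estimated from the 3 libraries together, followed by the bounds of its interval. There is no value per mouse, so the groups were compared without p-values, and spread between mice could not be measured.

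ASNase, a leukemia drug, breaks down asparagine and glutamine in the blood. When amino acids run short, uncharged tRNA activates GCN2, which phosphorylates the translation factor eIF2, lowers general protein synthesis and favors translation of ATF4, a transcription factor that turns on amino acid synthesis and stress genes. The other eIF2 kinases answer to other stresses. PERK (Eif2ak3) responds to misfolded protein in the endoplasmic reticulum (ER), PKR (Eif2ak2) to double-stranded RNA, and HRI (Eif2ak1) to heme shortage and to stress of the mitochondria. GCN1 (Gcn1l1) binds ribosomes and is needed for GCN2 activation in cells, IMPACT competes for GCN1 and so restrains GCN2, and P58IPK (Dnajc3) is a co-chaperone of the ER chaperone BiP that is also known as an inhibitor of PKR and PERK. These kinases are switched on by phosphorylation, which mRNA levels do not measure.

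A few stretches of sequence bear on how these values can be read. The first is in exon 12 of Eif2ak4, the exon deleted in the Gcn2-/- line, since a gene whose other exons remain can still collect reads. In transcript Eif2ak4-201 (GENCODE M21, build GRCm38) exon 12 of 39 lay at chr2:118430796-118431223 on the plus strand and held 428 of the 5212 transcript bases, or 8.21%. Its first 120 bases, at chr2:118430796-118430915, are printed below 5′ to 3′, with capitals on the alanine, valine and lysine codons of the ATP-binding part of the kinase domain. The other stretches are from the promoters of Dnajc3 and Eif2ak2 (RefSeq, GRCm38.p6), each with a motif of the stress to which the gene is usually linked. The Dnajc3 stretch, chr14:118937767-118937905 on the plus strand, has an ER stress response element in capitals, and the Eif2ak2 stretch, chr17:78882535-78882564 on the minus strand, an interferon-stimulated response element in capitals.
Eif2ak4 exon 12: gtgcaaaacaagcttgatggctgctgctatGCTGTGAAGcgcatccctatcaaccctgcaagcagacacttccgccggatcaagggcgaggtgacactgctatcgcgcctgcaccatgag
Dnajc3 promoter: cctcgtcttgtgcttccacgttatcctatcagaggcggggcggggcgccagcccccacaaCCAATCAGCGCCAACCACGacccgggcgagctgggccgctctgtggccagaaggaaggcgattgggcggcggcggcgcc
Eif2ak2 promoter: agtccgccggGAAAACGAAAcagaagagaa

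A set of motifs was searched on both strands of windows from 250 bases before to 50 bases after the transcript start. Promoters were matched for 6 of the 7 genes, with 7 windows in all, because Eif2ak4 had 2. The ER stress response element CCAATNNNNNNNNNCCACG occurred in 1 of the 7 windows, that of Dnajc3, where it began 105 bases before the start, and in 0.119% of all 32851 promoters. The interferon element GAAANNGAAA also occurred in 1 of the 7, that of Eif2ak2, where it began at base 19 of the transcript, and in 3.44% of all promoters. The core of the C/EBP-ATF response element, TGATGNAA, the letters through which ATF4 acts on many targets, was found in 0 of the 7 windows and in 3.97% of all promoters. The XBP1 element TGACGTGG was found in 0 of the 7 and in 0.676% of all. No motif overlapped another in these windows, and a match is a description of the letters only.

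All 42 values of the 7 genes had the status OK, and each was above an FPKM of 1. FPKM is scaled to transcript length, so levels of different genes can be set side by side within a group. Dnajc3 had the highest level in all 6 groups, between 42.2 and 85.0 FPKM, which placed it between percentiles 84.9 and 92.3 of the genes over 1 FPKM. Its interval lay above those of the kinases and Impact in every group, while it overlapped the very wide interval of Gcn1l1 in all 6. Eif2ak4 was the lowest kinase in all 6 groups, between 2.19 and 3.14 FPKM, or percentiles 15.2 to 23.6. GCN2, the sensor that gives this pathway its name in amino acid shortage, thus had the lowest kinase mRNA in value in these livers.

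**Figure D1:**
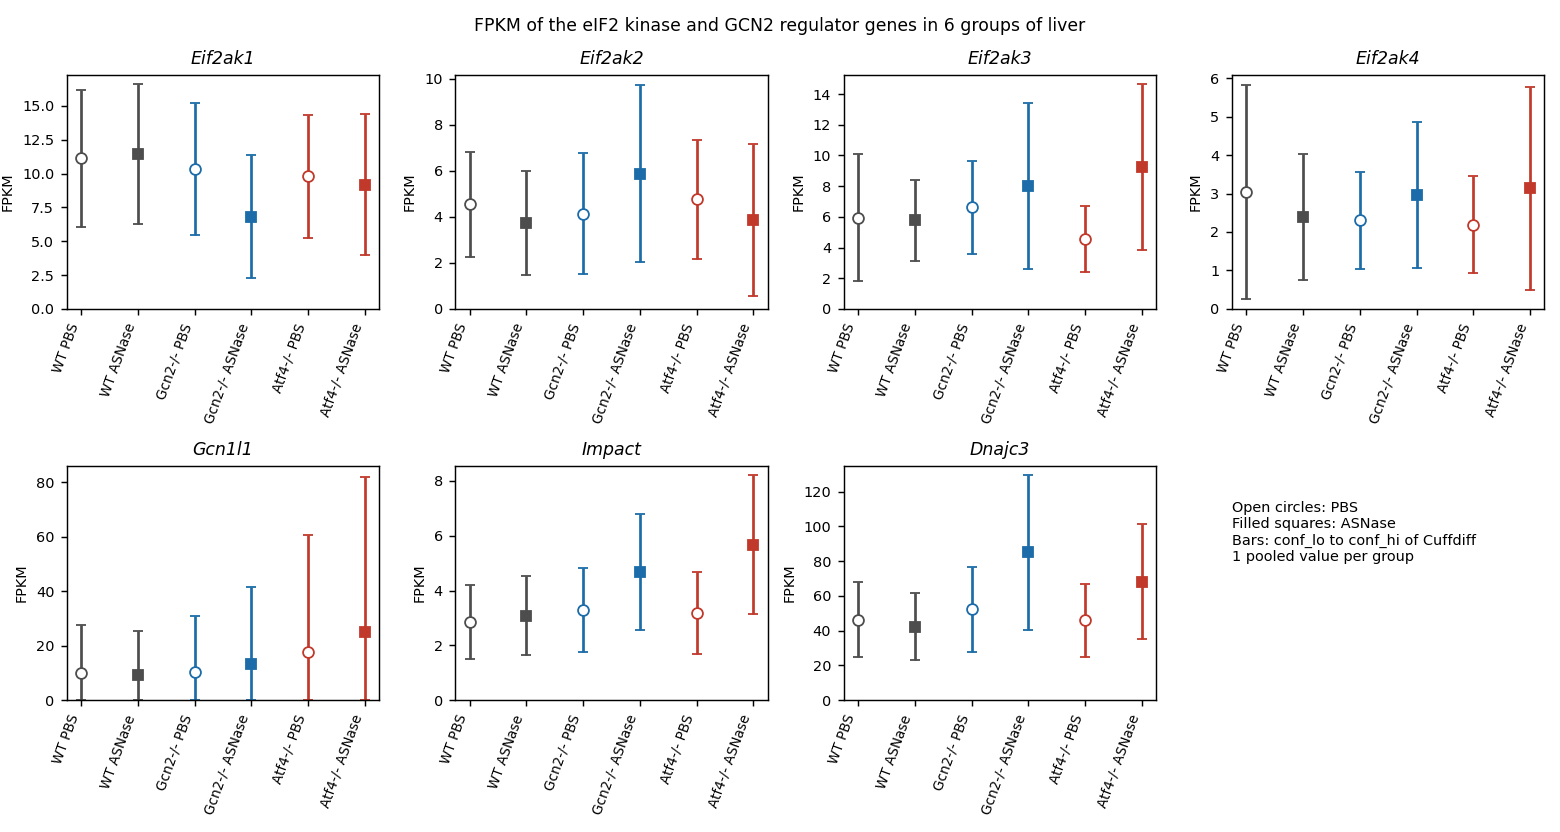
FPKM (linear axis from 0, a scale of its own per gene) of the 7 genes in the 6 groups, with open circles for PBS, filled squares for ASNase and bars from the lower to the upper Cuffdiff bound. Dnajc3 sits between 42.2 and 85.0, Eif2ak4 between 2.19 and 3.14, and for each gene the bars of all groups overlap.

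Among the kinases the order by level was Eif2ak1, Eif2ak3, Eif2ak2 and Eif2ak4 in WT PBS, WT ASNase and Gcn2-/- PBS. In Atf4-/- PBS Eif2ak2 (4.75 FPKM) and Eif2ak3 (4.58 FPKM) stood in the other order, with overlapping intervals. In both knockout groups given ASNase Eif2ak3 came first in value, at 8.02 against 6.83 FPKM for Eif2ak1 in Gcn2-/- ASNase and at 9.22 against 9.18 FPKM in Atf4-/- ASNase, again with overlapping intervals. The interval of Eif2ak1 lay above that of Eif2ak4 in the 4 other groups and above that of Eif2ak2 in WT ASNase, and that of Eif2ak3 lay above Eif2ak4 in Gcn2-/- PBS. No other pair of kinases could be ordered beyond the width of the intervals.

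The 4 kinase mRNAs together summed to 24.7 FPKM under PBS and 23.4 FPKM under ASNase in WT mice, to 23.3 and 23.7 FPKM in Gcn2-/- mice, and to 21.3 and 25.4 FPKM in Atf4-/- mice. The sums lay close together, while their make-up differed in value. The share of Eif2ak1 was between 44.2% and 49.0% in the 4 groups that were given PBS or were WT, 28.8% in Gcn2-/- ASNase and 36.1% in Atf4-/- ASNase. The share of Eif2ak3 was between 21.5% and 28.3% in those 4 groups, 33.9% in Gcn2-/- ASNase and 36.3% in Atf4-/- ASNase. Eif2ak4 made up 9.88% to 12.5% of the sum. These shares carry the errors of the FPKM values and were not tested.

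**Figure D2:**
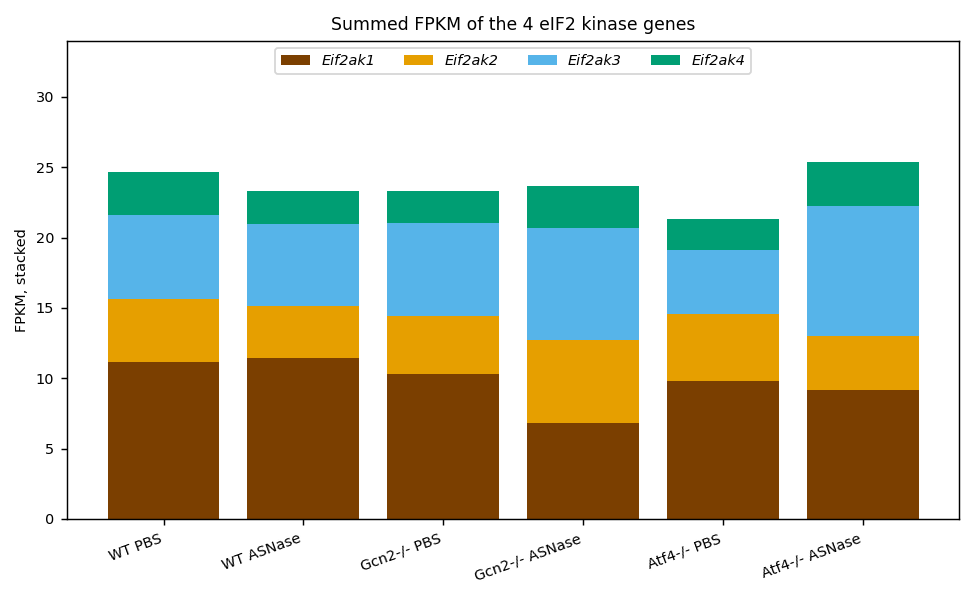
Stacked FPKM of the 4 eIF2 kinase genes in each group, on an axis from 0. The bars end between 21.3 and 25.4, and Eif2ak3 is the largest block in the ASNase groups of both knockouts.

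Eif2ak4, the target of the Gcn2-/- deletion, was read first as a check of the labels. In Gcn2-/- mice it was 2.31 FPKM (1.05 to 3.57) under PBS and 2.96 (1.07 to 4.85) under ASNase. In WT mice it was 3.04 (0.268 to 5.82) and 2.39 (0.750 to 4.04), and in Atf4-/- mice 2.19 (0.925 to 3.45) and 3.14 (0.4996 to 5.78). The Gcn2-/- groups thus lay among the others, and their intervals overlapped those of WT. Loss of exon 12 alone would lower a value over the whole transcript by only -0.12 on the log2 scale, against a measured -0.38 ± 1.48 in Gcn2-/- PBS minus WT PBS, where ± is the error carried from the intervals. The value of the whole gene is therefore no check of this deletion, and exon-level counts were not used here. The study itself reported, from read density plots of its RNA-Seq, that Gcn2 exon 12 was absent in Gcn2-/- mice and Atf4 in Atf4-/- mice. It also measured Atf4 by RT-qPCR. Neither was repeated here. Atf4, the target of the other deletion, was 50.4 and 63.1 FPKM under PBS and ASNase in WT mice and 60.04 and 68.1 FPKM in Gcn2-/- mice. In Atf4-/- mice it was 32.3 and 29.3 FPKM, lower in value but still well above 0. Which bases of the gene gave this value was not examined, so it is no check of that deletion either.

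Eif2ak3, the gene of the ER kinase PERK, had the largest ASNase difference of the 7 genes in value. In WT mice it was 5.95 FPKM (1.80 to 10.1) under PBS and 5.78 (3.14 to 8.42) under ASNase. In Gcn2-/- mice it was 6.61 (3.59 to 9.63) under PBS and 8.02 (2.61 to 13.4) under ASNase. In Atf4-/- mice it was 4.58 (2.42 to 6.74) under PBS and 9.22 (3.81 to 14.6) under ASNase, the lowest and the highest values of the gene, 2.01-fold apart. The WT pair was nearly level, and the Atf4-/- pair differed by 0.99 ± 1.07 on the log2 scale with overlapping intervals.

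Eif2ak1, the gene of the heme-sensing kinase HRI, was the member whose value was lowest where the others tended to be high. WT livers had 11.1 FPKM (6.06 to 16.2) under PBS and 11.5 (6.30 to 16.6) under ASNase. Gcn2-/- livers had 10.3 (5.43 to 15.2) and 6.83 (2.26 to 11.4), and Atf4-/- livers 9.80 (5.28 to 14.3) and 9.18 (3.96 to 14.4). Gcn2-/- ASNase stood below the other groups, with an interval that overlapped all of them. Exons of Eif2ak1 share 487 of their 5670 bases with Aimp2, a gene on the opposite strand at the 3′ end, and 172 with Ankrd61. Aimp2, a scaffold of the tRNA synthetase complex, was between 8.997 and 10.9 FPKM in the groups that were WT or given PBS, 20.4 in Gcn2-/- ASNase and 18.2 in Atf4-/- ASNase. The sources used here do not say that reads were counted by strand, so reads from the shared bases cannot be told apart.

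Eif2ak2, the gene of the RNA-sensing kinase PKR, was 4.53 FPKM (2.23 to 6.83) under PBS and 3.72 (1.48 to 5.96) under ASNase in WT livers. The matching values were 4.12 (1.497 to 6.75) and 5.88 (2.04 to 9.71) in Gcn2-/- livers, and 4.75 (2.16 to 7.34) and 3.85 (0.539 to 7.16) in Atf4-/- livers. Its highest value was in Gcn2-/- ASNase and its lowest in WT ASNase, 1.58-fold apart, and every interval overlapped every other.

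Of the regulators, Gcn1l1 was measured with the least precision. Under PBS and ASNase it was 9.84 and 9.08 FPKM in WT, 10.5 and 13.4 FPKM in Gcn2-/- and 17.8 and 25.0 FPKM in Atf4-/- livers. The lower bound was 0 in all 6 groups, and the upper bounds ran from 25.5 to 81.9. The distance from value to bound was 179% to 240% of the value, against a median of 55.0% to 57.9% over the genes above 1 FPKM, so no fold difference of this gene could have been told from its error. Its values in Atf4-/- livers were the highest under either treatment, which is a description only.

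Impact, the gene of the GCN2 inhibitor, was 2.85 FPKM (1.49 to 4.22) in PBS-treated and 3.08 (1.64 to 4.52) in ASNase-treated WT mice. In Gcn2-/- mice these were 3.31 (1.77 to 4.84) and 4.67 (2.54 to 6.80), and in Atf4-/- mice 3.19 (1.70 to 4.67) and 5.67 (3.13 to 8.21). Values under PBS were close in the 3 strains, and the highest were those of the knockouts given ASNase. For Impact too, every interval overlapped every other. The ratio of Impact to Eif2ak4 mRNA in value was 0.938 under PBS and 1.29 under ASNase in WT mice. It was 1.43 and 1.58 in Gcn2-/- mice and 1.46 and 1.81 in Atf4-/- mice. These ratios carry the errors of both genes and were not tested. The interval of Eif2ak4 ran from 0.268 to 5.82 FPKM in WT PBS and from 0.4996 to 5.78 in Atf4-/- ASNase. In Gcn2-/- mice an exon of the kinase domain is deleted, so there the ratio is not one of inhibitor to intact kinase.

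Dnajc3, the gene of the co-chaperone P58IPK, had 46.3 FPKM (24.9 to 67.7) under PBS and 42.2 (23.0 to 61.5) under ASNase in WT mice. Gcn2-/- mice had 52.2 (28.0 to 76.4) and 85.0 (40.5 to 129), and Atf4-/- mice 46.0 (25.1 to 67.0) and 68.2 (35.3 to 101). Both knockouts were higher in value under ASNase than under PBS and WT was not, and no pair of groups had separate intervals.

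The width of the intervals set what could be seen. A gene whose groups share the relative width of one value needs a certain fold for its intervals to separate, and over the 6 groups this fold was between 2.63 and 2.83 for Impact, 2.67 and 3.20 for Dnajc3, 2.64 and 5.04 for Eif2ak1 and 2.68 and 5.61 for Eif2ak3. It was between 3.06 and 13.3 for Eif2ak2 and between 3.40 and 21.7 for Eif2ak4, the low kinase. The highest value over the lowest among the 6 groups was 1.68 for Eif2ak1, 1.58 for Eif2ak2, 2.01 for Eif2ak3, 1.44 for Eif2ak4, 2.75 for Gcn1l1, 1.99 for Impact and 2.01 for Dnajc3. Differences of these sizes were not detectable with these intervals, which is not to say that they were absent. On the log2 scale the range over groups had a median of 0.97 for the 7 genes, against 0.89 (quartiles 0.58 and 1.43) over 12229 genes with an FPKM over 1 in some group. Eif2ak4, at 0.50, was at percentile 18.5 of these ranges, Dnajc3 at 57.4 and Gcn1l1 at 75.5.

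The first question was what ASNase does to these genes in each strain. Groups were compared as the difference of log2(FPKM + 0.1), on which changes of weakly expressed genes come out too small, and a gene was called when its intervals did not overlap. A wider rule called a gene when the difference in FPKM passed the root of the summed squared half-widths. In WT mice 0 of the 7 genes were called, where 1.04% of 11741 genes were called, 0.852% higher and 0.187% lower, and 1.63% by the wider rule. The WT differences were all small in value, from -0.33 ± 1.59 for Eif2ak4 and -0.28 ± 1.11 for Eif2ak2 through -0.13 ± 0.93 for Dnajc3, -0.11 ± 3.63 for Gcn1l1 and -0.04 ± 1.18 for Eif2ak3 to 0.04 ± 0.92 for Eif2ak1 and 0.11 ± 0.93 for Impact. Their median was -0.11, against 0.00 over all genes tested.

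In Gcn2-/- mice 0 of the 7 genes were called after ASNase, where 3.86% of 11597 genes were called, 1.77% higher and 2.10% lower, and 8.02% by the wider rule. In value 6 of the 7 were higher under ASNase, with a median of 0.35 against 0.05 over all genes. Dnajc3 differed by 0.70 ± 1.01, Eif2ak2 by 0.50 ± 1.29, Impact by 0.49 ± 0.91, Gcn1l1 by 0.35 ± 4.12, Eif2ak4 by 0.35 ± 1.17 and Eif2ak3 by 0.27 ± 1.16. Eif2ak1 was lower in value, at -0.59 ± 1.17. Each difference was smaller than its error.

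In Atf4-/- mice 0 of the 7 genes were called after ASNase, where 7.09% of 11835 genes were called, 2.66% higher and 4.43% lower, and 13.3% by the wider rule. In value 5 of the 7 were higher, with a median of 0.50 against 0.06 over all genes. The largest were 0.99 ± 1.07 for Eif2ak3, 0.81 ± 0.91 for Impact and 0.57 ± 0.95 for Dnajc3, followed by 0.50 ± 1.42 for Eif2ak4 and 0.49 ± 4.75 for Gcn1l1. Eif2ak1, at -0.09 ± 1.04, and Eif2ak2, at -0.30 ± 1.43, were lower in value. Here too no difference reached its error, in the strain and treatment where the share of all genes called was largest of the 3.

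**Figure D3:**
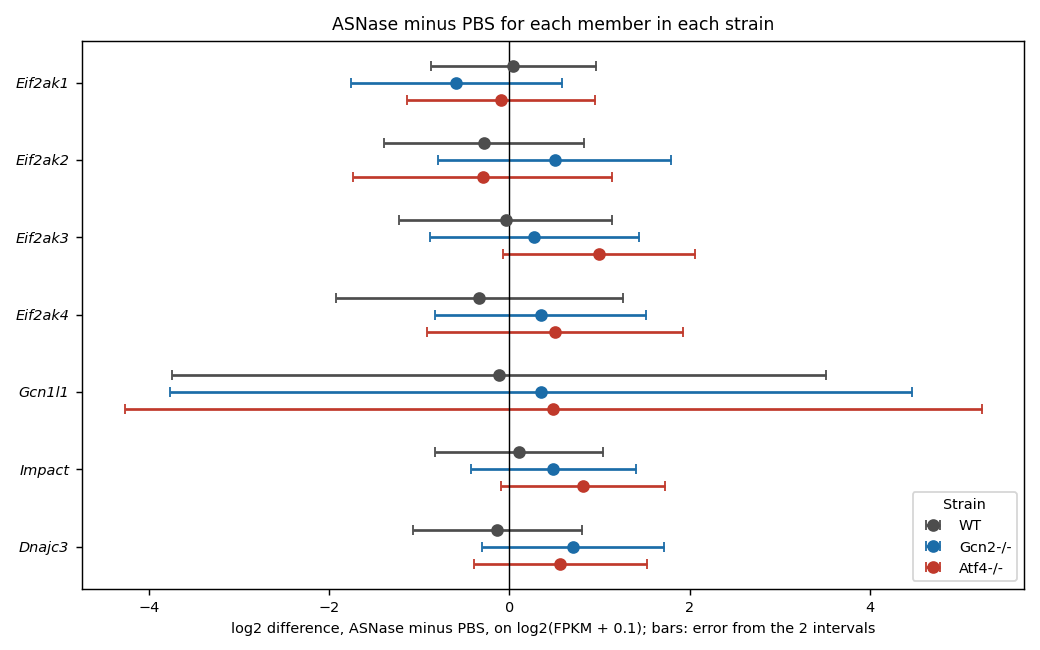
Difference of log2(FPKM + 0.1), ASNase minus PBS, for each of the 7 genes in WT, Gcn2-/- and Atf4-/- livers, with bars for the error carried from the Cuffdiff bounds of both groups. Every bar crosses 0, and the values farthest from it are 0.99 for Eif2ak3 in Atf4-/-, 0.81 for Impact in Atf4-/- and 0.70 for Dnajc3 in Gcn2-/-.

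Whether the response itself differed from WT was computed as the knockout response minus the WT response. For Gcn2-/- this was 0.84 ± 1.37 for Dnajc3, 0.78 ± 1.70 for Eif2ak2 and -0.63 ± 1.48 for Eif2ak1. For Atf4-/- it was 1.04 ± 1.59 for Eif2ak3, 0.71 ± 1.30 for Impact and 0.70 ± 1.34 for Dnajc3. None of the 7 genes had a response that differed from WT by more than this error in either knockout.

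The basal comparisons asked whether the deletions alone alter these genes. Between Gcn2-/- PBS and WT PBS 0 of the 7 were called, against 1.23% of all genes, or 2.20% by the wider rule, and their differences ran from -0.38 for Eif2ak4 to 0.21 for Impact. Between Atf4-/- PBS and WT PBS 0 were called, against 1.30%, or 2.18% by the wider rule. There the values ran from -0.46 for Eif2ak4 and -0.37 for Eif2ak3 to 0.85 for the imprecise Gcn1l1. Between Atf4-/- PBS and Gcn2-/- PBS 0 were called, against 1.11%, or 2.23% by the wider rule, and the values ran from -0.52 for Eif2ak3 to 0.76 for Gcn1l1. Comparisons that use the same PBS or ASNase group share its error and are not independent.

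Under ASNase, Gcn2-/- livers were compared with WT livers, where 4.69% of all genes were called, or 8.63% by the wider rule, and 0 of the 7. Dnajc3 was 2.01-fold higher in value in Gcn2-/- ASNase, a difference of 1.008 ± 0.9998. This was the 1 difference of the 63 computed for these genes that exceeded its error on the log2 scale, narrowly, and it passed neither rule for calling. It was below this error, at 0.955, when the groups were scaled by median ratio. Eif2ak2 was higher by 0.65 in value, Impact by 0.59 and Eif2ak3 by 0.46, and Eif2ak1 differed by -0.74 ± 1.15. Between Atf4-/- ASNase and WT ASNase 0 of the 7 were called, against 8.07%, or 14.1% by the wider rule. Gcn1l1 differed by 1.45 ± 4.17, the largest of the 63 differences in size and well within its error, Impact by 0.86 ± 0.91, Dnajc3 by 0.69 ± 0.96, Eif2ak3 by 0.66 ± 1.06 and Eif2ak1 by -0.32. Between the knockouts under ASNase 0 were called, against 3.38%, or 7.22% by the wider rule, and the values of Atf4-/- minus Gcn2-/- ran from -0.60 for Eif2ak2 to 0.90 for Gcn1l1, with 0.42 for Eif2ak1, 0.20 for Eif2ak3, 0.27 for Impact and -0.32 for Dnajc3.

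Summed markers of several cell types differed in value between the same groups, though not every marker moved with its sum. The 6 hepatocyte markers summed to 12613 to 19147 FPKM in the groups that were WT or given PBS (with no estimate of Serpina1a in Atf4-/- PBS), 9200 in Gcn2-/- ASNase and 8191 in Atf4-/- ASNase. Ttr and Apoa1 carried most of this, while Tat was higher in value under ASNase in Gcn2-/- (613 and 1987 FPKM) and Atf4-/- mice (952 and 2013 FPKM) and Cps1 was 754 and 779 FPKM in Gcn2-/- mice. Erythroid markers, 3 of 5 found in the table, summed to 56.4 to 94.7 FPKM in the first 4 groups and to 7.77 and 3.93 in the ASNase groups of the knockouts. Macrophage markers, 4 genes, ran from 111 to 224 FPKM against 84.9 and 79.6. In Gcn2-/- mice the lower sum rested on Clec4f (67.3 and 15.9 FPKM under PBS and ASNase), while Emr1 was 5.17 and 12.9 FPKM, Csf1r 9.39 and 11.8 FPKM and Cd5l 46.6 and 44.4 FPKM. The 5 skeletal muscle markers summed to 502 and 733 FPKM in WT livers under PBS and ASNase, 38.2 and 84.0 in Atf4-/- livers, and 0.422 and 0.521 in Gcn2-/- livers, where Myh4 was listed at 0 under PBS. Neutrophil markers were at most 15.2 and those of T and B cells at most 2.48 FPKM in sum in any group. Skeletal muscle is not a cell type of the liver, and the source of its marker values was not tested. In whole tissue fewer cells of a type and less RNA per cell cannot be told apart. The part of these marker differences, or of the sex of the mice, in the values of the 7 genes was not tested either.

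Other genes of the pathway were compared by the same rule. Over all genes tested, 0.852%, 1.77% and 2.66% were called higher after ASNase in WT, Gcn2-/- and Atf4-/- mice, and 0.187%, 2.10% and 4.43% lower. The counts in this list and the next ones stand beside these shares. Of 9 genes downstream of eIF2 phosphorylation, 2 rose after ASNase in WT, namely Trib3, a pseudokinase that restrains ATF4, from 5.46 to 19.5 FPKM and Fgf21, a fasting hormone of the liver, from 2.14 to 29.3 FPKM. Of the same 9, 0 rose in Gcn2-/- mice, and Fgf21 fell from 8.31 to 0.782 FPKM. In Atf4-/- mice 5 rose, among them Trib3 from 3.63 to 150 FPKM and Asns, asparagine synthetase, from 0.591 to 20.1 FPKM, with Atf5, Atf3 and Chac1 besides. The list's median was 0.77, 0.31 and 2.91 on the log2 scale in WT, Gcn2-/- and Atf4-/-, while Eif2ak4, the kinase of the amino acid branch, was at -0.33, 0.35 and 0.50. The list includes Atf4 itself, the gene deleted in Atf4-/- mice, where its difference was -0.14. Some of these 9 genes thus had separate intervals, though 7 of 9 in WT and 8 of 9 in Gcn2-/- mice did not. Those called differed by more in size than any kinase or regulator gene of the main set did after ASNase. They therefore do not show what the intervals could resolve at smaller sizes.

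The substrate and the phosphatase side came next, beside the same shares over all genes. Of 9 genes for subunits of eIF2 and of its exchange factor eIF2B, 0 were called in WT and in Gcn2-/- mice, and 1 rose in Atf4-/- mice, Eif2b3, a subunit of eIF2B, from 5.51 to 16.0 FPKM. In both knockouts all 9, the Y-linked Eif2s3y included, were higher in value under ASNase, with a median of 0.25 in Gcn2-/- and 0.83 in Atf4-/-, against -0.07 in WT. Of 5 genes of the eIF2 phosphatase, which includes the stress-induced subunit GADD34 (Ppp1r15a), 0 were called in any strain. Ppp1r15a went from 7.09 to 8.13 FPKM in WT, from 8.94 to 11.3 in Gcn2-/- and from 8.60 to 20.1 in Atf4-/- mice, with lower bounds of 0 throughout, so that it too was measured with little precision.

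Another 11 regulators of the kinases were examined. In WT and Gcn2-/- mice 0 were called after ASNase. In Atf4-/- mice 3 rose and 1 fell, where 2.66% of all genes were called higher and 4.43% lower. Those that rose encode the P-stalk of the ribosome, known as an activator of GCN2, and were Rplp0 from 181 to 1214 FPKM, Rplp1 from 869 to 3633 FPKM and Rplp2 from 354 to 1255 FPKM. Ribosomal protein genes have processed copies in the genome, and how reads were shared with these is uncertain. Other ribosomal protein genes were not examined here, so whether the rise is particular to the P-stalk was not tested. Under PBS, Rplp0 was also lower in value in Atf4-/- mice than in WT (398 FPKM) and Gcn2-/- mice (426 FPKM), with overlapping intervals against WT and Gcn2-/-. The gene that fell was Prkra, whose product PACT activates PKR, from 9.16 to 2.53 FPKM, a difference of -1.82 ± 1.06. In Gcn2-/- mice Prkra was 10.9 and 5.27 FPKM under PBS and ASNase, a difference of -1.04 ± 0.98 with overlapping intervals, and in WT mice 10.1 and 9.57 FPKM.

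PERK and P58IPK belong to the ER branch, and 12 genes of the unfolded protein response were set beside them. Of all genes, 0.852%, 1.77% and 2.66% were called higher in WT, Gcn2-/- and Atf4-/- mice. In WT mice 0 of the 12 were called and the median was -0.55. Those that rose in Gcn2-/- mice numbered 2, Sdf2l1 from 22.0 to 83.7 FPKM and Creld2 from 26.2 to 87.9 FPKM, both for proteins of the ER lumen, and the median was 0.94. In Atf4-/- mice Sdf2l1, Creld2 and the co-chaperone gene Dnajb9 rose, and the median was 1.49. Dnajc3, at -0.13, 0.70 and 0.57, and Eif2ak3, at -0.04, 0.27 and 0.99, had the sign of these medians in each strain, and were smaller in size than the median in every strain. Over the 6 groups the Pearson correlation of Dnajc3 with the 12 genes had a median of 0.92, from -0.73 with Herpud1 to 0.96 with Pdia4, and that of Eif2ak3 a median of 0.88. These are 6 points of group values with shared errors, given as a description.

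PKR is itself the product of an interferon-stimulated gene, and 14 others were set beside Eif2ak2. In WT mice 0 of 13 that could be tested were called, with a median of -0.84. Over all genes, 1.77% were called higher in Gcn2-/- mice and 4.43% lower in Atf4-/- mice. Of 14 genes tested, 3 rose in Gcn2-/- mice, Isg15 from 12.6 to 196 FPKM, Oas1a from 1.10 to 5.97 FPKM and Oasl2 from 2.36 to 20.1 FPKM, and all 14 were higher in value, with a median of 1.25. In Atf4-/- mice 7 of 13 fell, among them Ifit3 from 5.79 to 0.604 FPKM and Usp18, a protease that removes ISG15, from 9.82 to 1.77 FPKM, with a median of -1.50. Eif2ak2 had the sign of these medians in each strain, at -0.28, 0.50 and -0.30, but was smaller in value, and it was called in none. Its correlation with the 14 genes over the 6 groups had a median of 0.77, from 0.40 with Rsad2 to 0.96 with Oas1a.

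**Figure D4:**
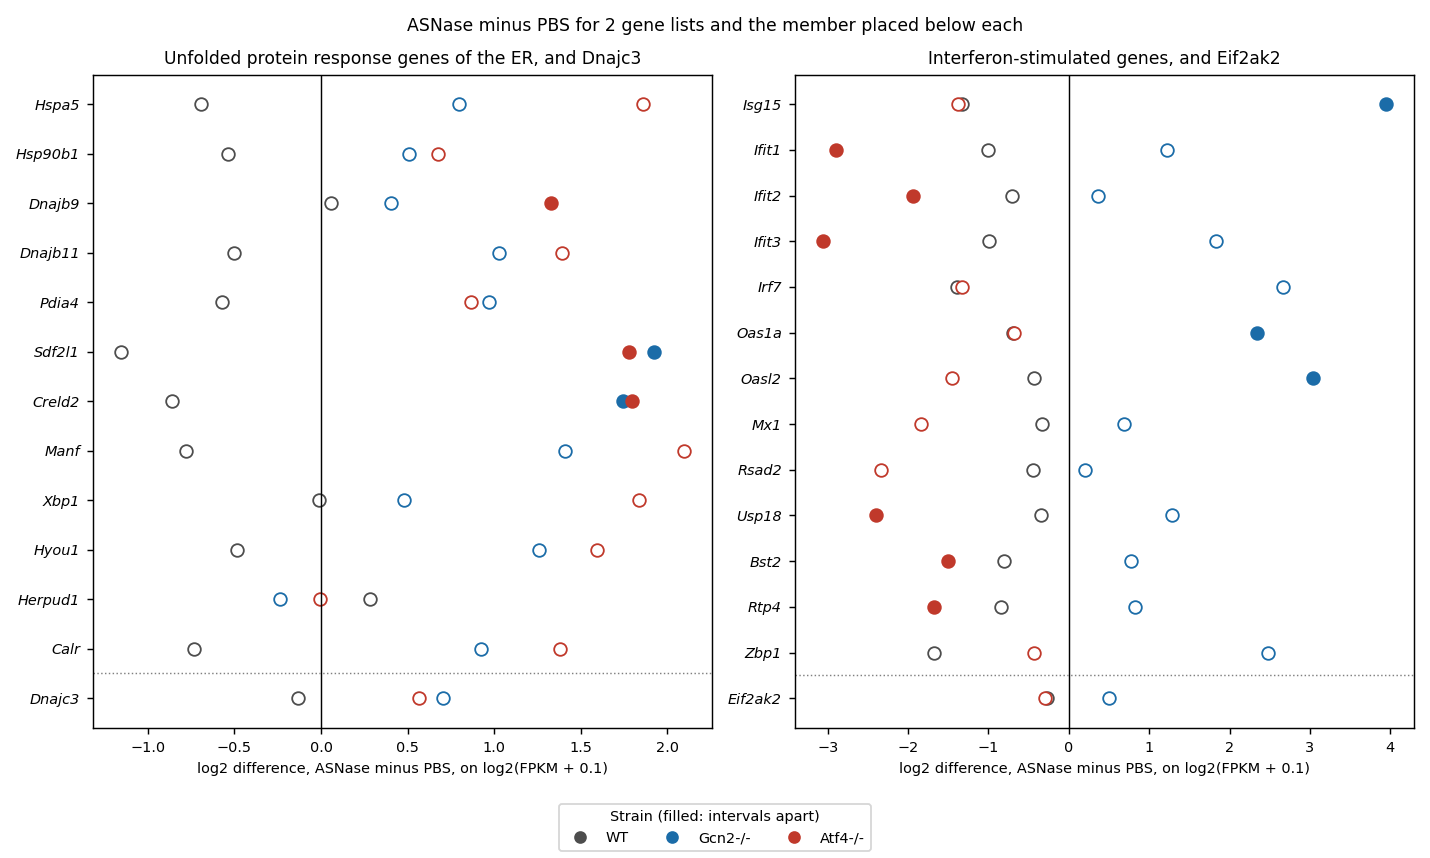
Difference of log2(FPKM + 0.1), ASNase minus PBS, in the 3 strains for 12 unfolded protein response genes with Dnajc3 (left) and 13 of the interferon-stimulated genes with Eif2ak2 (right), filled where the intervals were apart. Dnajc3 (-0.13, 0.70 and 0.57 in WT, Gcn2-/- and Atf4-/-) and Eif2ak2 (-0.28, 0.50 and -0.30) have no filled point.

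The genes most like each member over the 6 groups were sought by Pearson correlation of log2(FPKM + 0.1). For Dnajc3 they included Ovca2 (0.997) and Sec61g, a subunit of the ER translocon (0.996). Sec61g was 147 and 124 FPKM under PBS and ASNase in WT mice, 356 FPKM in Gcn2-/- ASNase and 266 FPKM in Atf4-/- ASNase, the same order as Dnajc3 in these groups. For Eif2ak3 they were Tatdn1 (0.998), 0610007L01Rik (0.993) and Ppp1r14b (0.990), and for Eif2ak1 Srr, serine racemase (0.995), Bri3bp (0.991) and Pitrm1, a peptidase of mitochondria (0.987). For Eif2ak2 they were Ttll1 (0.993), Tcirg1 (0.989) and Sirpa, a receptor of myeloid cells (0.985), and for Eif2ak4 Rexo2 (0.989), Top1mt, the topoisomerase of mitochondria (0.978), and Ccdc124 (0.973). For Impact they were Fam133b (0.998), Gtf2a2 (0.997) and Arl4a (0.997), and for Gcn1l1 Zfp26 (0.985), Arhgef10l (0.980) and Rgs1 (0.976). With 6 points such values are common: 505 genes had r over 0.95 with Impact and 187 with Dnajc3, but 13 with Eif2ak4.

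Among themselves the members differed in direction over the groups. Eif2ak1 had a negative correlation with each of the other 6, the strongest with Dnajc3 (r = -0.93). Impact, Dnajc3 and Eif2ak3 were alike, at 0.86 for Eif2ak3 with Impact, 0.86 for Impact with Dnajc3 and 0.81 for Eif2ak3 with Dnajc3. Eif2ak2 had little relation to Eif2ak3 (0.01) or Gcn1l1 (0.03).

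By GENCODE M21 (GRCm38), the genes lie at chr5:143817788-143904251 (Eif2ak1, ENSMUSG00000029613), chr17:78852564-78882573 (Eif2ak2, ENSMUSG00000024079), chr6:70844515-70905245 (Eif2ak3, ENSMUSG00000031668), chr2:118388618-118475234 (Eif2ak4, ENSMUSG00000005102), chr5:115565254-115622654 (Gcn1l1, ENSMUSG00000041638), chr18:12955852-12992950 (Impact, ENSMUSG00000024423) and chr14:118937976-118981697 (Dnajc3, ENSMUSG00000022136). All are protein-coding, and Eif2ak2 alone is on the minus strand. The genes are spread over 6 chromosomes, and Eif2ak1 and Gcn1l1, both on chromosome 5, do not adjoin.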

How the data were processed

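Poly-A RNA from liver was sequenced as single-end reads. By the submitters' processing notes and the methods of the study, the authors aligned reads to mm10 with TopHat and estimated expression with Cuffdiff. The deposited table gives FPKM, 1 value per group from 3 libraries, normalized by the authors to transcript length and mapped reads. The bounds of each value are in FPKM and were also deposited; their confidence level is not given in the sources used here. Length and coverage columns are empty, and the table carries no counts. The read totals that the study lists per library were not used, and precision was taken from the bounds. Each value column was assigned to its group by name, with 0 left over.

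Groups were compared in 9 ways with a pseudocount of 0.1. A gene entered a comparison with a status of OK and an FPKM above 0 on both sides, and over 1 on at least 1 side. The error of a log2 difference is the root of the summed squared half-widths, each divided by FPKM + 0.1 and by the natural log of 2. The rules were run on simulated data with changes far larger than any seen in the 7 genes, among genes with lower bounds above 0. That run does not show how the rules perform at the sizes seen here. Python 3.11.15, numpy 2.4.6, pandas 2.3.3 and matplotlib 3.10.9 were used. The genes, lists, markers and motifs were chosen with earlier results of these data known. All 7 genes were named, from the lists those that were called or give a range, and for each member the 3 most alike genes with an FPKM over 1 in all groups and at least 0.5 of its range, except for items that are not reported here. GENCODE and RefSeq tables were matched by Ensembl ID and symbol. A planned alignment of the kinase proteins was not run, and proteins were not analysed here.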

Additional observations from a re-analysis of the deposited data

How the results depend on the processing

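The count of called genes among the 7 stayed at 0 in all 9 comparisons with a pseudocount of 1 or 0.01, with median-ratio scaling of the groups, without the filter on FPKM, with the combined interval, and with the limits of the study's methods (FPKM over 3 and an absolute log2 difference over 1.5). Of the 63 log2 differences, 1 changed sign under scaling, that of Eif2ak2 in Atf4-/- ASNase minus WT ASNase, from 0.05 to -0.02, and 0 under the other settings. A pseudocount of 1 moved a difference by at most 0.15, scaling by at most 0.07. Over all genes the calls after ASNase rose with the combined interval from 448 to 930 in Gcn2-/- mice. They rose from 839 to 1577 in Atf4-/- mice and from 122 to 191 in WT. With the study's limits on FPKM and log2 difference added to the rule of separate intervals, they were 340, 699 and 80 in the same order. The study itself called genes by Cuffdiff q values, which were not used here, and its own counts are larger, so these are not its counts. No paired analysis was possible because the table holds 1 pooled value per group, and for the same reason no library could be left out. A difference under the folds given above cannot separate the intervals; the combined interval calls at smaller folds.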

Other observations

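HRI answers to heme, and 4 heme genes were set beside Eif2ak1. Hmox1, which breaks heme down, rose after ASNase in Gcn2-/- mice, from 13.0 to 40.3 FPKM, and in Atf4-/- mice, from 14.7 to 55.3 FPKM, and was 14.5 and 14.6 FPKM under PBS and ASNase in WT mice. Fech, which completes heme, was lower in value under ASNase in both knockouts, from 84.6 to 42.2 and from 71.9 to 42.1 FPKM, with overlapping intervals. Alas1, the first enzyme of heme synthesis, was 360 and 233 FPKM in Gcn2-/- and 317 and 183 FPKM in Atf4-/- mice. Over the 6 groups the correlation of Eif2ak1 was lowest with Hmox1 (r = -0.72) and highest with Fech (0.69). These are 6 points, given with no test, and the erythroid markers were low in the same ASNase groups.

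IMPACT is best known from the brain. The 4 neuron markers summed to 1.35 to 5.11 FPKM, with the lowest sums in Gcn2-/- ASNase (1.86) and Atf4-/- ASNase (1.35), the groups in which Impact had its highest values. Most of this sum was Syt1, at 0.540 to 4.95 FPKM, except in Atf4-/- ASNase, where Syt1 was lowest. Snap25 and Tubb3 went the other way, with their highest values in Atf4-/- ASNase (0.486 and 0.137 FPKM), and Snap25 was listed at 0 in WT PBS and in both Gcn2-/- groups.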
